A study of Mus musculus with 2 samples.

Results

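The genes described here encode the signalling chains of the T cell antigen receptor and the proteins that act on them first. They are 10 genes: the CD3 chain genes Cd3d, Cd3e, Cd3g and Cd247, the kinase genes Lck and Zap70, the adaptor genes Lat, Trat1 and Sh2d1a, and the receptor gene Cd5. They were chosen by name, and every probe of the array whose gene name, accession or synonym belongs to them was taken. This gave 12 probes, with 2 each for Cd247 and Zap70 and 1 for each of the other 8 genes, out of 39429 probes for 31709 named genes or transcripts. A gene counts as measured where the scanner software put its probe well above background on array 1 and on array 2 for the KO RNA or for the WT RNA. All 10 genes were measured, and all 12 probes passed in both RNAs.

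The tested RNA came from Lamtor1-deficient (KO) CD4+ T cells and was set against that of CD4+ T cells from wild-type (WT) mice, with C57BL/6J given as the strain on both arrays. Lamtor1 encodes a subunit of Ragulator, which holds the kinase complex mTORC1 at the lysosome. Per the labels' protocols, naive CD4+CD62L+ cells were sorted magnetically from spleen and both genotypes were cultured for 5 days on plate-bound antibody to CD3 with antibody to CD28. The medium held recombinant human TGFβ at 1 ng/ml and IL-2 at 50 ng/ml. In that culture the receptor described here is itself the target of the stimulus, in both groups. The extraction protocol speaks of naive cells, and the labels leave open whether the RNA came from cultured or uncultured cells. How Lamtor1 was deleted, in which cells, and the number, age and sex of the mice are not given in the sources used here. The 2 arrays carried the same pair of extracts with the dyes exchanged (KO in Cy5 on array 1 and in Cy3 on array 2) and count as 1 replicate, so no difference has a check against biological replicates, no p-value is given, and precision is limited to what 2 arrays allow.

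As background, the antigen-binding chains of the receptor have almost no cytoplasmic part and signal through CD3 heterodimers, which pair epsilon with gamma or delta, and through the zeta homodimer encoded by Cd247. These chains carry immunoreceptor tyrosine-based activation motifs (ITAMs). Lck phosphorylates the motifs, Zap70 binds them and phosphorylates the scaffold Lat, and Lat gathers the enzymes that open the calcium, Ras and NF-κB branches. Trat1, also called TRIM, is a transmembrane adaptor that associates with zeta. Sh2d1a encodes SAP, which couples receptors of the SLAM family to the kinase Fyn. CD5 dampens receptor signalling.

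The probe sequences below are those in the scanner files, 5′ to 3′, with positions in build mm9, and are shown because their coding sequence says which part of each message the values report. Capitals mark the codon pattern of an ITAM in an open reading frame.
Cd247, brighter probe (chr1:167786567-167787585, plus strand): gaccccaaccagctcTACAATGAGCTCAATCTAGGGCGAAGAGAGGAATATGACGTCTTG
Cd3d (chr9:44794171-44794402, plus strand): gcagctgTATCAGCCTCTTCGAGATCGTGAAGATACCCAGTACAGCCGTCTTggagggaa
Lat (chr7:133507719-133507778, minus strand): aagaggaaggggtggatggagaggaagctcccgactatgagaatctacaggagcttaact
Trat1 (chr16:48734961-48735020, minus strand): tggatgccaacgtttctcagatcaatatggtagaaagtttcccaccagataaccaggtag
Zap70, dimmer probe (chr1:36839315-36839374, plus strand): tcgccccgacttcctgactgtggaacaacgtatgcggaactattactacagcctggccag

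The Cd247 and Cd3d probes each hold a whole ITAM codon pattern, at bases 16 to 60 and 8 to 52 of the probe, so their signal comes from the part of the message that encodes a signalling motif. Among all 39429 probes, 30 (0.0761%) hold the pattern in an open frame on the strand as printed, and 28 (0.071%) on the opposite strand. The 60 bases of the Cd247 probe are spread over 1019 bases of the genome and those of the Cd3d probe over 232, so both cross an intron and report spliced RNA. The Cd3g, Cd3d and Cd3e genes are neighbours, and their probes lie within 29.02 kb of chromosome 9. The Lat probe shares chromosome 7 with Lamtor1 but lies 24.4 Mb from the Lamtor1 probe. No probe was checked for cross-hybridisation, and the exon of the other probes was not read from an annotation here.

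Lamtor1 itself had log2 intensities of 8.08 and 8.14 in the KO extract, against 10.04 and 10.07 in the WT extract (arrays 1 and 2), a log2 ratio, KO over WT, of −1.95 ± 0.03, where ± is here and below the technical SD of the 2 arrays. Where its probe lies relative to the deletion is unknown here, so this checks the labels only if the probe lies within the deleted part. No probe was saturated. The median signal of all probes was 70.5 and 68.5 in the KO channel and 71.4 and 76.4 in the WT channel of arrays 1 and 2, over local backgrounds of 38 to 43. Before normalization the dyes differed strongly on bright probes: Lck had mean signals of 25605 and 9178 in the KO channel of arrays 1 and 2, against 15907 and 33128 in the WT channel. All values below are therefore after loess normalization within each array.

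Of the 10 genes, 3 were lower in the KO extract by the rule of size used here, which asks for a 2-fold or larger difference of 1 sign on each array, and 0 were higher. Across all 14879 measured genes that rule called 6.88% lower and 2.46% higher, 9.34% in all (1024 and 366 genes; 881 and 111 when each array was centred on its median in place of loess). The 3 were Sh2d1a, Trat1 and Cd5, adaptors and a regulator of the receptor. None of the 4 CD3 chain genes, neither kinase gene and not Lat was called. At 1.5-fold, 4 members were lower and 0 higher, Cd3d being the addition, beside 13.5% lower and 6.78% higher, 20.3% in all, of the measured genes. The median log2 ratio of the members was −0.40, against −0.02 for all measured genes.

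**Figure D1:**
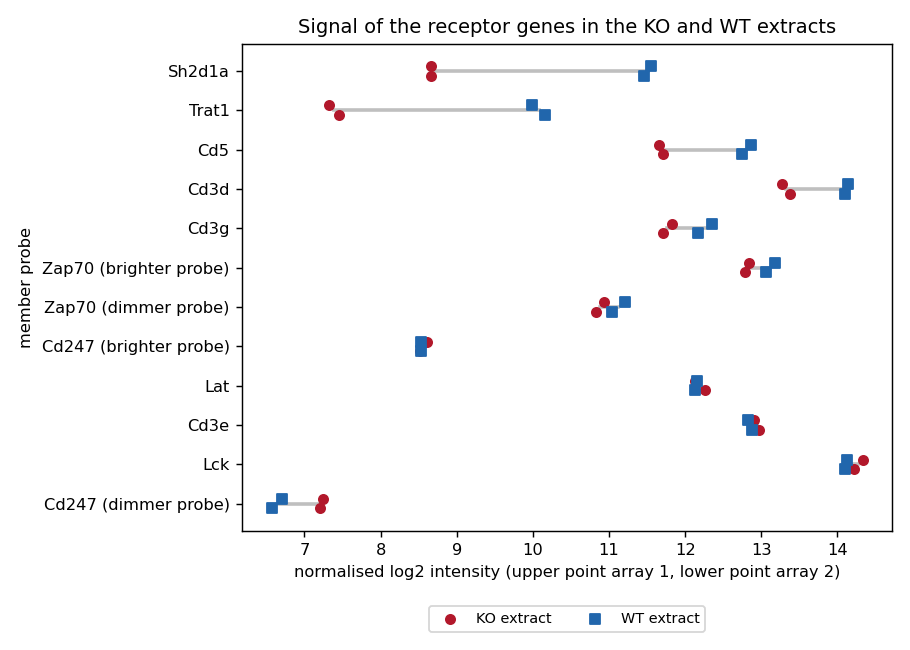
Normalised log2 intensity (x axis) of each of the 12 member probes (y axis), with circles for the KO extract and squares for the WT extract, 1 point per array. The grey bar joins the means of both arrays. Sh2d1a, Trat1 and Cd5 have the widest gaps, and the intensities of different probes are not comparable with each other.

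Sh2d1a and Trat1 had the lowest ratios of the members, and which of them was lower depended on the background correction. For Sh2d1a the normalised log2 intensity was 8.66 and 8.66 in the KO extract on arrays 1 and 2, against 11.55 and 11.46 in the WT extract. Every KO value lay below every WT value, and the KO signal of the probe was still clear of background. The log2 ratio was −2.85 ± 0.06 (−2.89 on array 1, −2.80 on array 2), 7.20-fold lower, and ranked 21st from the lowest of the 14879 measured genes. The probe lies at chrX:39875116-39875175.

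Trat1 stood close to it. The log2 intensity was 7.32 and 7.45 in the KO extract, against 9.99 and 10.16 in the WT extract, again without overlap. In the KO channels the uncorrected mean signals were only 162 and 101, against 894 and 1829 in the WT channels, so the KO level was read from dim signals. The log2 ratio was −2.69 ± 0.03 (−2.67 on array 1, −2.71 on array 2), 6.46-fold lower, at rank 33 from the lowest. With the processed signals of the scanner software, which do not compress dim probes as the offset of 50 does, it was −3.46, against −3.03 for Sh2d1a there. With an offset of 1 it was −3.21, against −3.01 for Sh2d1a. Sh2d1a was thus lower than Trat1 by 0.16 at an offset of 50, and Trat1 was lower than Sh2d1a in those settings and with the deposited ratios.

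Cd5 was lower by less. Its log2 intensity was 11.66 and 11.71 in the KO extract, against 12.86 and 12.74 in the WT extract. The readings of the KO extract and of the WT extract did not overlap. The log2 ratio was −1.12 ± 0.12 (−1.20 on array 1, −1.03 on array 2), 2.17-fold lower, at rank 956. It met the rule narrowly: with an offset of 1 array 2 gave −0.97, and under median centring array 1 gave −0.99, so Cd5 was not called under either although its means there were −1.08 and −1.72. Its probe lies at chr19:10792701-10792760.

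**Figure D2:**
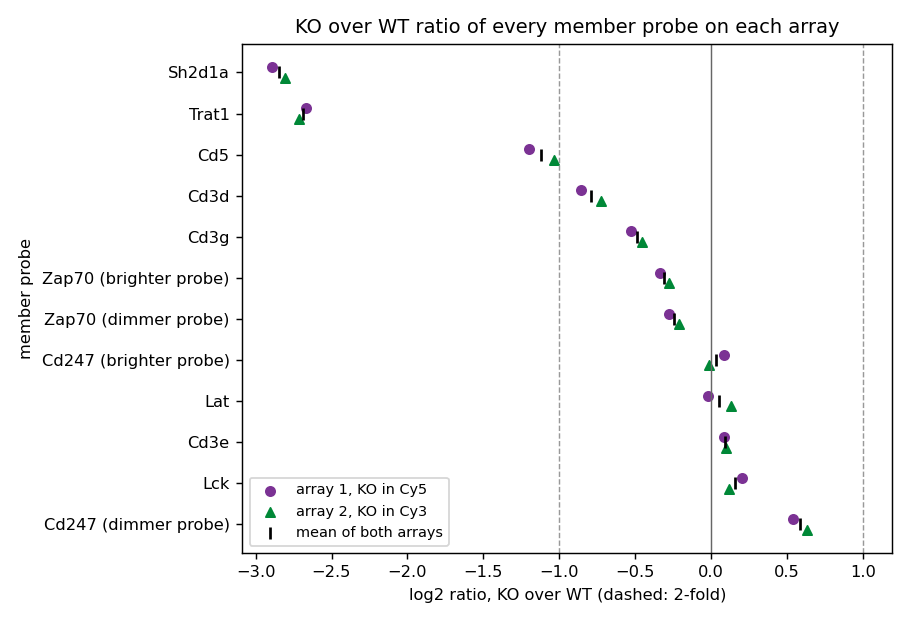
Log2 ratio, KO over WT (x axis), of each member probe (y axis) on the array with KO in Cy5 (circles) and the array with KO in Cy3 (triangles), with ticks for their mean and dashed lines at 2-fold. Sh2d1a, Trat1 and Cd5 lie beyond the lower line on both arrays, and the brighter Cd247 probe and Lat change sign between arrays.

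The CD3 chains did not share a ratio. Cd3d, encoding the delta chain, had log2 intensities of 13.27 and 13.37 in the KO extract, against 14.13 and 14.10 in the WT extract, a log2 ratio of −0.79 ± 0.09. Cd3g, encoding gamma, had 11.82 and 11.71 in the KO extract, against 12.35 and 12.16 in the WT extract, a log2 ratio of −0.49 ± 0.05. For both genes every KO value lay below every WT value, and neither reached 2-fold on any array. Median centring gave −1.43 for Cd3d and −1.09 for Cd3g, differences of −1.05 and −0.71 from the median of all genes, and called neither. In that setting arrays 1 and 2 gave −0.57 and −2.28 for Cd3d, and −0.32 and −1.86 for Cd3g. Cd3e encodes the epsilon chain that pairs with each of them. Its log2 intensities were 12.91 and 12.97 in the KO extract, against 12.82 and 12.87 in the WT extract. The log2 ratio was 0.09 ± 0.01. When arrays were median-centred it was 0.33 on array 1 and −1.39 on array 2. Their mean was −0.53, a difference of −0.16 from the median of all genes. Of these 3 neighbouring genes Cd3d thus lay below Cd3g in log2 ratio, by 0.33 and 0.27 on arrays 1 and 2, and both lay below Cd3e.

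Cd247, encoding zeta, gave different values at its 2 probes. The brighter probe, printed above, had log2 intensities of 8.61 and 8.52 in the KO extract, against 8.53 and 8.54 in the WT extract. The readings of the extracts thus overlapped. The log2 ratio of this probe was 0.04 ± 0.07 and changed sign between the arrays (0.08 on array 1, −0.01 on array 2). On arrays 1 and 2 it was 0.18 and 0.19 with the processed signals, and 0.10 and 0.05 with an offset of 1. The dimmer probe, which the scanner files assign to the kappa transcript variant, lies 12738 bases further along chromosome 1, at chr1:167800324-167800383. It had 7.25 and 7.21 in the KO extract, against 6.71 and 6.57 in the WT extract, without overlap. That log2 ratio of 0.59 ± 0.06 depends on how background is handled: it was 1.43 with the processed signals, past 2-fold on both arrays, and its uncorrected signals were 149 and 110 in the KO channels, against 84.2 and 106.8 in the WT channels. The dimmer probe exceeded the brighter by 0.55 ± 0.13 on the log2 scale. The accession behind it has no entry in the RefSeq gene table used, so it was matched by gene symbol.

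The kinase genes lay within 1.5-fold after loess normalization. Zap70 had log2 intensities of 12.83 and 12.79 in the KO extract, against 13.17 and 13.07 in the WT extract at its brighter probe, a log2 ratio of −0.31 ± 0.04. Its other probe, 227 bases upstream by start position, gave −0.24 ± 0.05, and the probes differed by 0.07 on the log2 scale. Both probes placed every KO value below every WT value. Median centring gave −0.93 at the brighter probe (−0.09 on array 1, −1.77 on array 2), a difference of −0.55 from the median of all genes. Lck had 14.33 and 14.22 in the KO extract, against 14.13 and 14.10 in the WT extract, a log2 ratio of 0.16 ± 0.06. All Lck values of the KO extract lay above those of the WT extract. Median centring gave 0.52 on array 1 and −1.48 on array 2. Their mean was −0.48, a difference of −0.11 from the median of all genes. With opposite signs on the arrays in that setting, the direction of Lck was not stable across normalizations. Its ratio was below 0 in 1 of 11 alternative ways of processing the arrays, median centring, and that of Cd3e likewise.

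Lat, the scaffold downstream of Zap70, had log2 intensities of 12.13 and 12.26 in the KO extract, against 12.15 and 12.13 in the WT extract. The readings of the extracts overlapped, and the log2 ratio of 0.05 ± 0.11 was −0.02 on array 1 and 0.13 on array 2. The processed signals gave 0.09 and 0.16 on arrays 1 and 2, and an offset of 1 gave 0.01 and 0.20. Median centring gave −0.55 (0.19 on array 1, −1.29 on array 2), a difference of −0.18 from the median of all genes.

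In order of log2 ratio the members ran Sh2d1a, Trat1, Cd5, Cd3d, Cd3g, Zap70, Cd247, Lat, Cd3e and Lck. The place of Cd247 is that of its brighter probe. The median over its probes gave 0.31, above the 0.16 of Lck. The order of Sh2d1a and Trat1 turned round with the background correction and was not resolved. Neighbours from Trat1 to Cd247 were separated by gaps of 0.18 to 1.57, each larger than the combined technical SD of the pair. The gap between Cd247 and Lat was 0.02 with a combined SD of 0.13, and that between Lat and Cd3e was 0.04 with 0.11, so the order of these 3 genes was not resolved. Lck lay above Cd3e by 0.07, a gap about the size of its combined SD of 0.07. The technical SDs of the members ran between 0.01 and 0.12, beside a median of 0.11 for all measured genes, and measure labelling and hybridisation only.

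**Figure D3:**
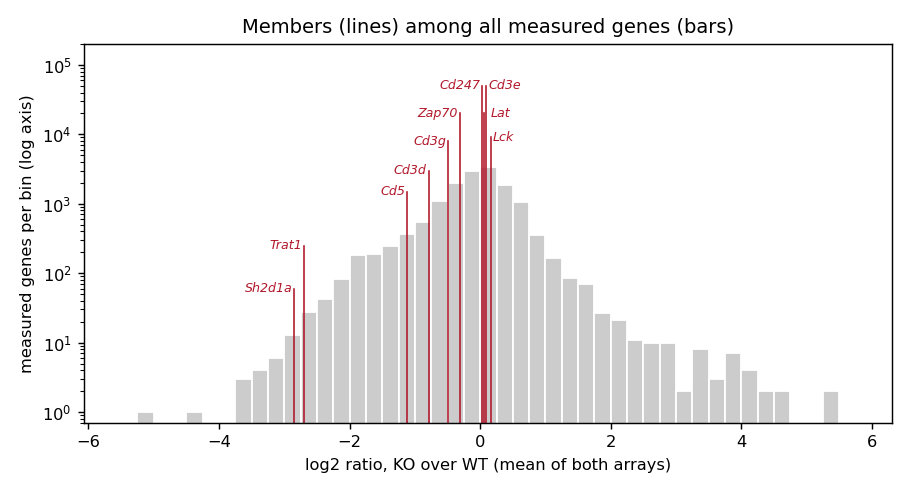
Histogram of the log2 ratio, KO over WT (x axis), of all 14879 measured genes (grey bars, number per bin on a log axis), with a line at the ratio of each of the 10 members. Sh2d1a and Trat1 lie in the lower tail, Cd5 and Cd3d on its shoulder, and Lck, Cd3e, Lat and Cd247 at the centre of the distribution.

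Promoter sequences are shown for the called members with an entry in the RefSeq promoter table, Trat1 and Cd5, and for Cd3d, the uncalled member nearest to them. Each is 300 bases that span the gene start in build GRCm38.p6, on the gene's strand, and 9 of the 10 members had at least 1 entry. Capitals mark GGAAG, a form of the ETS core, and TGTGGT, a form of the RUNX motif. Both are marked on either strand (as CTTCC and ACCACA on the opposite one). ETS and RUNX are families of factors known for T cell promoters. Other forms of these motifs were neither marked nor counted.
Trat1 (chr16:48772013-48772312, minus strand): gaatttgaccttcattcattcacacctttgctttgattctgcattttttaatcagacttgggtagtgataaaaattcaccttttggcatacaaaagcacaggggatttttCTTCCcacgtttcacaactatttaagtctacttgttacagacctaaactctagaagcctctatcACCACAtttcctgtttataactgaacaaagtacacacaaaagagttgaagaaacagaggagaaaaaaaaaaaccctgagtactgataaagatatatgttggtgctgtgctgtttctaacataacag
Cd5 (chr19:10738925-10739224, minus strand): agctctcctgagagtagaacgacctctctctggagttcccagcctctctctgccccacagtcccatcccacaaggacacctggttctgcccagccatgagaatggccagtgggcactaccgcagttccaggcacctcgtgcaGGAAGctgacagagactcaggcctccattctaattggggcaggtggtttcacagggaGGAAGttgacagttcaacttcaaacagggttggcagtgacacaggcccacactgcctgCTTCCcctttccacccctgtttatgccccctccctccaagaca
Cd3d (chr9:44981536-44981835, plus strand): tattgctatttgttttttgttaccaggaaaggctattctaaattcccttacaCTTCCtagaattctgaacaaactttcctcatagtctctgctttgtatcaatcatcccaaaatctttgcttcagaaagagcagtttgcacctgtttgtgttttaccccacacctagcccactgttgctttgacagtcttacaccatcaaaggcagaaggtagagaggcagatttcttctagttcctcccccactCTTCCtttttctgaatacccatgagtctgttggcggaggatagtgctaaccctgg

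The Trat1 window held 1 match to GGAAG and 1 to TGTGGT, the Cd5 window 3 and 0, and the Cd3d window 2 and 0. Of all 32851 promoters of that length in the table, 71.4% hold GGAAG and 16.8% hold TGTGGT on either strand. The TATA box letters TATAAA occurred once in the Trat1 window, not in the other printed windows, and in 13.6% of all promoters. E-box letters (CANNTG) occurred 0, 2 and 1 times in the Trat1, Cd5 and Cd3d windows and in 72.3% of all promoters. No marked match overlapped another or an E-box. The G and C share was 35.3% in the Trat1 window, 57.3% for Cd5 and 42.3% for Cd3d. These matches describe letters and say nothing of binding.

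The wider receptor pathway was read from 6 lists of 92 further genes, of which 85 were measured. By the same rule 6 were lower and 5 higher, with a median log2 ratio of −0.14. Across all 14879 measured genes the rule called 6.88% lower and 2.46% higher. The counts per list below stand beside these shares and were not tested against them.

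In the list of antigen receptor chains and zeta relatives, 3 of 6 measured genes were higher and 0 lower. Fcer1g, the signalling chain of Fc receptors and a structural relative of zeta, had log2 intensities of 11.63 and 11.58 in the KO extract, against 7.20 and 7.31 in the WT extract, a log2 ratio of 4.35 ± 0.11 beside 0.04 at the brighter Cd247 probe. The constant segments of the gamma and delta receptor chains were also higher, Trgc1 at 2.78 ± 0.03 and Trdc at 2.75 ± 0.19. The beta-chain constant segments Trbc1 and Trbc2, whose near-identical copies these probes may not separate, stood at −0.22 ± 0.09 and −0.15 ± 0.28, and the alpha segment Trac at 0.66 ± 0.23. None of these last 3 was called, and Trbc2 changed sign between the arrays.

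Among 10 coreceptors and costimulatory receptors 2 were lower and 0 higher (median −0.55): Cd4, the coreceptor that carries Lck, at −1.18 ± 0.05, and the inhibitory receptor gene Ctla4 at −1.60 ± 0.34. Cd4 was not called on the median of its probes, since its dimmer probe gave −0.81. Cd6, the closest relative of Cd5, stood at −1.04 ± 0.13 and just missed the rule (−0.95 on array 2), and its dimmer probe gave −0.63. Cd28 stood at 0.04 ± 0.11 and the phosphatase gene Ptprc, which activates Lck, at 0.20 ± 0.06.

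Of 13 measured kinases and their regulators 1 was higher and 0 lower (median −0.20). That was Txk, a kinase of the Tec family, at 1.30 ± 0.13. Txk was not called under median centring. In this list 1 gene was lower with the processed signals, the deposited ratios, an offset of 1, no background subtraction or array 1 alone. Fyn, the Src kinase that binds SAP, stood at 0.30 ± 0.17. Syk, the relative of Zap70, was not measured, its probe being well above background on 1 array in the KO RNA and on 0 in the WT RNA.

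Of 25 measured adaptors and scaffolds 2 were lower and 0 higher (median −0.08). Sla encodes an adaptor known to lower receptor levels through Cbl, and had log2 intensities of 7.88 and 7.91 in the KO extract, against 10.64 and 10.74 in the WT extract, a log2 ratio of −2.79 ± 0.05, between those of Sh2d1a and Trat1. Fyb, an adaptor for integrin adhesion, stood at −1.15 ± 0.02. Lcp2, which encodes the Lat partner SLP-76, stood at 0.37 ± 0.11.

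Beside the low Sh2d1a, the 7 measured SLAM receptors had 0 lower and 1 higher (median −0.14). This depended on the background correction. With the processed signals or the deposited ratios 1 was lower and 1 higher (median −0.60). An offset of 1 also gave 1 lower and 1 higher (median −0.34). Cd244a, a SLAM receptor known from NK cells, was higher at 1.15 ± 0.0039 and was not called under median centring. Slamf6 stood at −0.91 ± 0.04, Ly9 at −0.88 ± 0.10 and Cd84 at −0.48 ± 0.06, none called. The dimmer probes of Slamf6 and Cd84 gave −0.20 and 0.24, and the other 3 receptors stood between −0.14 and 0.09. Sh2d1b1 and Sh2d1b2, the relatives of SAP, were not measured.

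In the calcium, diacylglycerol and NF-κB branches 2 of 24 measured genes were lower and 0 higher (median −0.14). They were Ppp3cc, a catalytic subunit of calcineurin, at −1.41 ± 0.08, and Itpr1, a calcium release channel, at −1.18 ± 0.03. Under median centring 1 gene was lower in this list and 1 among the adaptors.

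**Figure D4:**
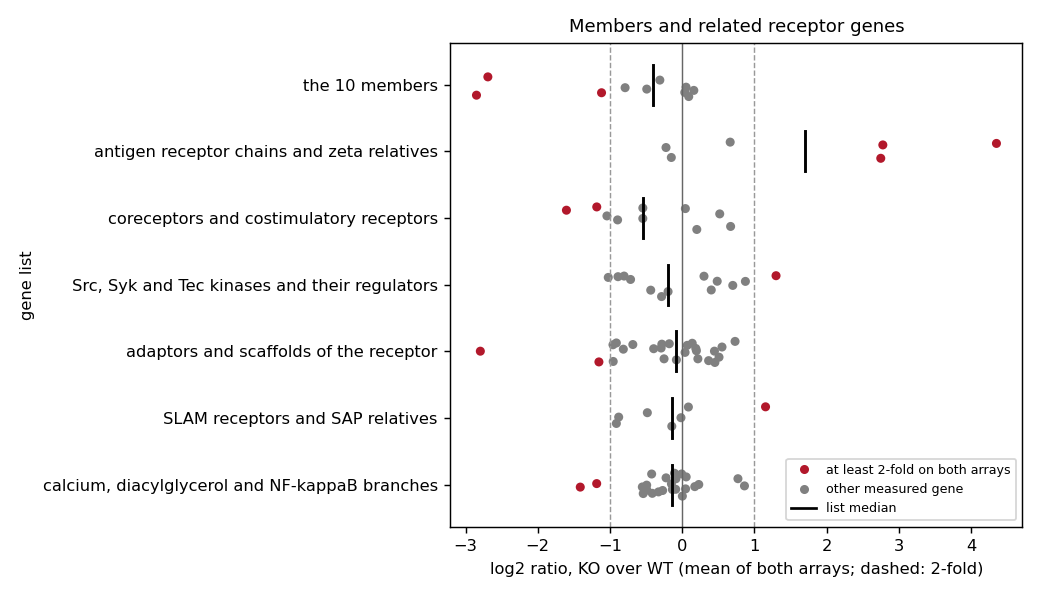
Log2 ratio, KO over WT (x axis), of the 10 members and of the measured genes of 6 related lists (rows), 1 point per gene with vertical jitter, red where the gene was at least 2-fold apart on both arrays. Black bars are list medians and dashed lines mark 2-fold. Sh2d1a, Trat1 and Sla lie together below −2.5, and Fcer1g, Trgc1 and Trdc lie highest.

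Markers of other cells also differed between the extracts, and the arrays measure mixed RNA, in which fewer cells of a type and less RNA per cell cannot be told apart. Of 12 measured markers of NK, gamma-delta T and CD8 T cells (14 listed, Klrk1 and Ncr1 not measured), 8 were higher and 0 lower. Neither CD8 gene was called, Cd8a standing at 0.67 and Cd8b1 at −0.55, and Klrb1c, Klra8 and Tyrobp were well above background in the KO RNA alone. The list's summed normalised signal was 11687 and 11741 in the KO extract, against 4213 and 4039 in the WT extract. The highest intensities of this list were those of Nkg7 (log2 ratio 1.04, not called) and, in the KO extract, Xcl1 (4.03, called higher). Trgc1 and Trdc stand in that list too. Of 9 measured myeloid and dendritic cell markers (12 listed; Cd14, Adgre1 and Itgax not measured) 3 were higher (S100a8, S100a9 and Lyz1) and 1, H2-Ab1, lower, with summed signals of 37272 and 36765 in the KO extract, against 23620 and 23728 in the WT extract. Its highest intensities were those of Siglech (log2 ratio 0.82) and Itgam (0.70), neither called. Lyz1, Lyz2 and S100a8 were not well above background in the WT RNA, and under a stricter filter on dim probes 0 of this list and 5 of the NK, gamma-delta and CD8 list were higher. Of 8 B cell markers only Cd79b and Cd22 were measured, and 0 were called. Cd79a, Ms4a1, Pax5, Ighm and Blk were among those not measured, and the summed signal was 468 and 445 in the KO extract, against 364 and 310 in the WT extract. The 8 T cell markers, of which 4 are members, were all measured, with 1 (Cd4) lower and 0 higher. Cd2 stood at −0.89 and Cd3d at −0.79, and Thy1, Cd28, Cd3e and Cd247 stood between 0.04 and 0.09. The list had summed signals of 75724 and 71483 in the KO extract, against 94644 and 94958 in the WT extract. The part of these cell types in the member ratios was not tested.

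**Figure D5:**
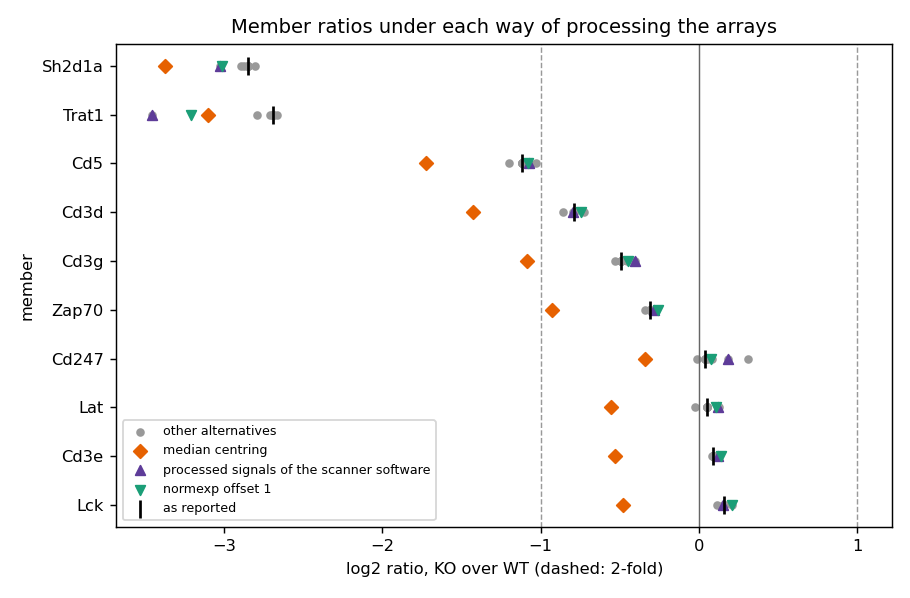
Log2 ratio, KO over WT (x axis), of each member (y axis) as reported (black ticks) and under 11 alternative ways of processing the arrays, with median centring, the processed signals and the offset of 1 marked. Median centring gives the lowest value for every member except Trat1, and places Cd247, Lat, Cd3e and Lck below 0. For Cd247, Lat, Cd3e and Lck its arrays differ in sign. Sh2d1a and Trat1 stay beyond 2-fold throughout.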

How the data were processed

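The deposited scanner files came from Agilent Feature Extraction 10.7.3.1 per the file headers (10.5.1.1 per the submitters' processing notes) and hold, per spot, uncorrected mean intensity and local background median intensity in both channels, and a processed intensity, detrended and dye-normalized by the software. The authors' deposited value table holds log10 ratios of Cy5 over Cy3, equal to the software's own. Per the labels, 400 ng of each cRNA was hybridised at 65 °C for 17 h.

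Mean intensities were corrected with normexp (offset 50, which shrinks ratios of dim probes) and normalized by loess within arrays in limma 3.58.1, R 4.3.3. Control spots had weight 0, spots flagged as outliers were dropped (206 and 214) and spots of a probe averaged. Using the labelled dyes, each ratio was expressed as KO over WT, and the 2 arrays were averaged. Channel intensities are after loess and Aquantile. Of the probes, 26055 were named by accession from the RefSeq table of GRCm38.p6, and the brightest probe stood for a gene. Constant segments of receptor genes were named from the description in the scanner files. Plots used Python 3.11.15 and matplotlib 3.10.9.

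With 1 extract per genotype there was no test. The members, lists and alternatives were chosen with earlier results of these data known. Named are all members, every gene of the pathway lists past the rule of size, and a set list of relatives and partners of the members. Marker genes, and the gamma-chain probes, were named in addition after their values were seen.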

Additional observations from a re-analysis of the deposited data

How the results depend on the processing

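No paired analysis was possible because each genotype gave a single extract, on which nothing could be tested. Sh2d1a and Trat1 stayed at least 2-fold lower under all 11 alternatives and Cd5 under 9, but several alternatives could not change these calls. The dim-probe filters and the keeping of outlier spots left member values as they were. So did the median over probes for these genes, which have 1 probe each. Each array alone had to pass, because the rule asks for 2-fold on each, and the deposited ratios repeat the processed signals. Among the remaining settings, Cd5 was called with the processed signals and without background subtraction. It was not called with an offset of 1 or under median centring. Trat1 was lower than Sh2d1a with the processed signals, the deposited ratios and an offset of 1. The members had 2 lower with an offset of 1 and under median centring, 4 at 1.5-fold and 3 otherwise, and 0 higher throughout. Their median log2 ratio was −0.34 with the processed signals or the deposited ratios, −0.35 with an offset of 1, and −1.01 under median centring, which put the median of all genes at −0.37 and not at −0.02. Among all genes, 1617 were lower and 868 higher with the processed signals or the deposited ratios, 609 higher with an offset of 1, 111 higher under median centring, 556 higher on array 1 alone, and 2008 lower and 1009 higher at 1.5-fold. Under median centring every member had a lower ratio on array 2 than on array 1, for example −1.48 against 0.52 for Lck. The cause of these shifts was not tested. Dim signal limits Trat1 in the KO RNA and the dimmer Cd247 probe.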

Other observations

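Besides Trgc1 and Trdc, 4 further probes that the scanner files assign to predicted gamma-chain transcripts were higher in the KO extract on both arrays, with log2 ratios of 2.15 ± 0.0037, 2.17 ± 0.06, 2.36 ± 0.17 and 2.38 ± 0.31. Gamma-chain constant segments are near-identical copies that these probes may not separate. All were well above background in both RNAs on both arrays, and their normalised log2 intensities ran between 8.91 and 10.43 in the KO extract, against between 6.75 and 7.93 in the WT extract.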
